A study of Gallus gallus with 6 samples.

Results

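Muscle contracts when calcium leaves the sarcoplasmic reticulum, the calcium store of a muscle cell, and relaxes when it is pumped back. Release happens at the triad, where a membrane tubule from the cell surface lies against the store. Junctophilins hold these membranes together, triadin ties the storage protein calsequestrin to the release channel, SERCA pumps refill the store, and parvalbumin binds calcium in the cytosol of fast fibres. When the store runs low, STIM proteins in its membrane sense the loss and open ORAI channels in the surface membrane. Genes of this machinery were taken here by gene name: PVALB, CASQ2, TRDN, JPH1, JPH2, ATP2A2, ATP2A3, STIM1, STIM2 and ORAI2.

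Of these 10 names, 9 had a row among the 24881 Ensembl genes of every table, each name once. JPH2 had none and was not analysed here. All 9 passed the filter on low values, a mean of at least 1 FPKM (reads scaled by gene length and library size) over all libraries, as did 12808 genes in all. By the authors' FPKM, each of the 9 averaged above that minimum in myotubes and in myoblasts taken alone. With the gene length listed for PVALB, its myoblast mean would fall below that minimum. None of the 9 overlaps another gene listed in the tables.

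RNA was sequenced from primary skeletal muscle cells of chicken embryos at passage 1. Differentiated myotubes, the fused cells that become fibres, had been cultured with 2% horse serum. Proliferating myoblasts, the single cells they form from, were grown with 15% fetal bovine serum. Both media were RPMI-1640 with antibiotics, and each group had 3 libraries. The hours spent in differentiation medium, the number of embryos and whether replicates were separate cultures are not given, so p-values reflect only how these libraries spread, which may be technical.

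The libraries held 21893152 to 23519295 counted reads in myotubes and 16052542 to 20981337 in myoblasts. Of 10 skeletal muscle markers matched in the tables, 8 were higher in myotubes and 2, MYOD1 and DES, lower, and all 6 proliferation markers, of which TOP2A was the most abundant, were lower. Markers of other cells were present in both groups. Levels are given as CPM, read counts scaled to the same library size after TMM normalization. Fibroblast markers summed to between 11592 and 13373 CPM in myotubes and between 5736 and 5834 CPM in myoblasts, with 9 of 10 tested genes higher, TCF21 under 1 CPM in every library and COL1A2 the most abundant. Blood cell and macrophage markers summed to between 342 and 369 CPM in myotubes and between 1062 and 1127 CPM in myoblasts, with 8 of 10 lower and C1QB the most abundant. The 6 heart markers matched summed to between 133 and 160 CPM in myotubes and between 20.7 and 25.3 CPM in myoblasts. Nearly all of that was MYBPC3, while NKX2-5, GATA4, MYL2 and HCN4 stayed under 1 CPM in every library. TBX5, under the filter, held 1.25, 0.562 and 1.31 CPM in myotubes and 0.129, 0 and 0.251 CPM in myoblasts. The 5 smooth muscle markers summed to between 3930 and 4418 CPM in myotubes and between 732 and 748 CPM in myoblasts, with 4 higher and CNN1 lower. Most of that sum and of its difference was ACTA2, smooth muscle actin, at 3972 ± 248 CPM in myotubes and 609.9 ± 6.78 CPM in myoblasts (SD, n = 3 each). Endothelial markers summed to between 10.01 and 11.9 CPM in myotubes and between 6.43 and 7.48 CPM in myoblasts. EGFL7, the 1 gene tested, was higher and made up most of both sums. It held 9.38 ± 1.30 CPM in myotubes and 4.81 ± 0.622 CPM in myoblasts (SD, n = 3 each). KDR, TEK and TIE1 stayed under 1 CPM in every library, and CDH5 and SOX18 reached at most 1.27 and 1.16 CPM. Neuron and glia markers summed to between 4.04 and 5.89 CPM in myotubes and between 22.5 and 25.4 CPM in myoblasts, with ELAVL4 and SOX10 lower of 3 tested. Whether these sums came from other cells, and what part such cells had in the results on calcium genes, was not tested. In whole cultures, fewer cells of a type and less RNA per cell cannot be told apart.

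Of the set, 5 genes were higher in myotubes. Message for the buffer PVALB, the anchoring protein TRDN and the storage protein CASQ2 was 21.2-fold, 5.02-fold and 3.36-fold higher. For the junction protein JPH1 and the pump ATP2A2 it was 1.55-fold and 1.2-fold higher. STIM1, the main calcium sensor, was 1.23-fold lower, a call lost under several settings given with its values. ATP2A3, STIM2 and ORAI2 were not called. In edgeR's quasi-likelihood test at an adjusted p under 0.05, 5 of 9 genes were therefore higher, where 36.7% of all 12808 tested genes were. In the other direction 1 of 9 was lower, against 35.7% of all genes. At least 2-fold higher were 3 of 9, against 14.1% of all genes. Calls in either direction covered 66.7% of the set and 72.5% of all genes. On the TPM scale each library's FPKM values are rescaled to the same sum and tested with limma in place of edgeR. There 5839 genes were higher and 3474 lower, in place of 4706 and 4577. Test and scale both differ, and limma on log2(FPKM + 0.1) without this rescaling gave 5062 higher and 4172 lower. CPM of the groups did not overlap for 6 of the 9 genes, where 76.1% of all genes did not overlap. On these counts the set was called about as often as genes in general. The median log2 fold change was 0.26 for the set and 0.01 over all tested genes. These counts describe the set, which was chosen with earlier results of the same data known.

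**Figure D1:**
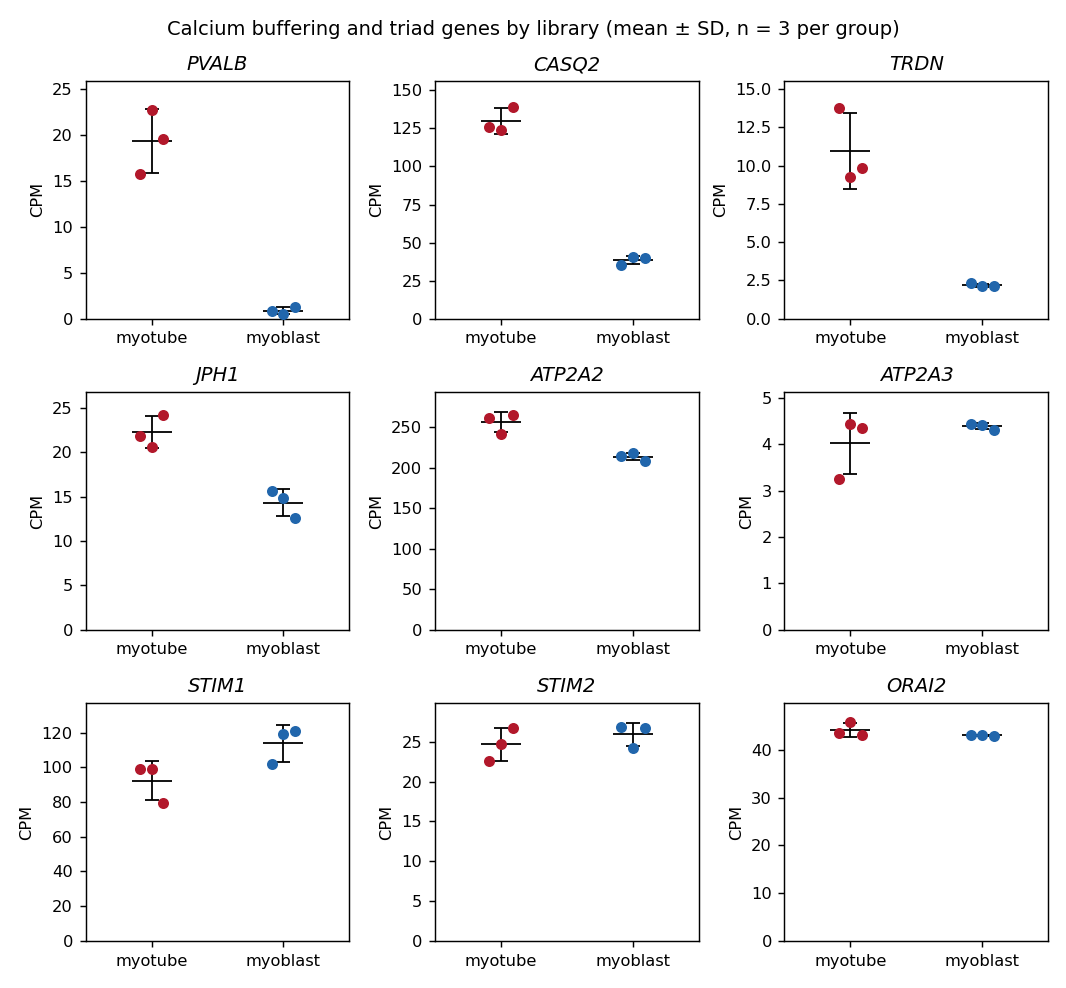
CPM of the 9 genes in each library, myotubes (red) left of myoblasts (blue). Points are libraries, black bars the mean ± SD of 3 libraries, and each vertical axis starts at 0. PVALB, CASQ2, TRDN, JPH1 and ATP2A2 show every myotube library above every myoblast library, and STIM1 every myotube library below.

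The cytosolic buffer PVALB, parvalbumin, had the largest difference of the set. Its gene is listed as ENSGALG00000012522 on chromosome 1 from 51645215 to 51653703, plus strand, in a genome build not given in the sources used here. Counts were 367, 527 and 432 reads in the myotube libraries and 13, 9 and 25 reads in the myoblast libraries. Scaled, these were 15.8, 22.8 and 19.6 CPM in myotubes and 0.835, 0.561 and 1.26 CPM in myoblasts. The lowest myotube library thus stood far above the highest myoblast library. The mean was 19.4 ± 3.51 CPM in myotubes and 0.884 ± 0.350 CPM in myoblasts (SD, n = 3 each). The log2 fold change was 4.41 with a standard error of 0.241 (edgeR adjusted p = 1.1e-07), and the 95% interval of the fold reached from 14.6 to 30.8. Few reads lie behind the myoblast values, whose coefficient of variation of 39.6% was the widest of the set. Ranked by FPKM among all tested genes, PVALB stood at percentile 67.7 in myotubes and at percentile 5.40 in myoblasts. Both percentiles rest on the length of 748 bases that the authors' FPKM implies, where 1605 bases are listed.

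CASQ2 encodes calsequestrin, the protein that holds calcium inside the store. It lies on chromosome 1 from 80446094 to 80476861, plus strand (ENSGALG00000015018). The RefSeq gene table of assembly GRCg7b gives CASQ1, the name of the fast-muscle form in mammals, as a synonym of this gene, and no other calsequestrin row was matched. The libraries held 126, 124 and 139 CPM in myotubes and 35.5, 40.4 and 39.8 CPM in myoblasts. All 3 myotube libraries were at least 3 times as high as the highest myoblast library. The means were 130 ± 8.43 CPM in myotubes and 38.6 ± 2.66 CPM in myoblasts (SD, n = 3 each). The log2 fold change of 1.75 ± 0.076 (SE) had an edgeR adjusted p of 2.2e-08, the lowest of the set, with 2866 to 3078 reads per myotube library and 553 to 791 per myoblast library. The 95% interval of the fold was 2.99 to 3.78.

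TRDN encodes triadin, which spans the store membrane and links calsequestrin to the ryanodine receptor. It is listed on chromosome 3 from 60999895 to 61164573, plus strand (ENSGALG00000014848). Its libraries held 13.8, 9.25 and 9.83 CPM in myotubes and 2.31, 2.12 and 2.11 CPM in myoblasts. Myotube replicate 1 was the highest, and the groups did not overlap. Means were 10.96 ± 2.47 CPM in myotubes and 2.18 ± 0.115 CPM in myoblasts (SD, n = 3 each), a log2 fold change of 2.33 ± 0.196 (SE; edgeR adjusted p = 2.4e-06). The interval of the fold, 3.71 to 6.80, met that of CASQ2 at its lower end. Reads numbered 214 to 321 per myotube library and 34 to 42 per myoblast library. Myotube replicate 1 was at the same time the lowest myotube library for PVALB and for ATP2A3, so these genes did not share their order among the myotube libraries.

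JPH1, junctophilin 1, tethers the store to the surface tubule. It is listed on chromosome 2 from 118543324 to 118621765, minus strand (ENSGALG00000035845). The libraries held 21.9, 20.7 and 24.2 CPM in myotubes and 15.6, 14.8 and 12.6 CPM in myoblasts. The groups were separate but closer than for the storage proteins. Means were 22.3 ± 1.81 CPM in myotubes and 14.4 ± 1.56 CPM in myoblasts (SD, n = 3 each), a log2 fold change of 0.64 ± 0.111 (SE; edgeR adjusted p = 0.00047; 95% interval of the fold 1.31 to 1.85). Its relative JPH3, known in mammals mainly from brain, differed more. It stood at 17.1 ± 0.958 CPM in myotubes and 2.53 ± 0.151 CPM in myoblasts (SD, n = 3 each), 6.72-fold higher (edgeR adjusted p = 3.1e-08). JPH3 made up 53.9%, 54.7% and 48.6% of the summed FPKM of JPH3 and JPH1 in the myotube libraries, against 19.1%, 18.6% and 23.2% in the myoblast libraries. The 2 junctophilins were thus near equal per gene length in myotubes, while JPH1 was the larger in myoblasts. This pair was chosen after its values were seen and was not tested.

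SERCA pumps return calcium to the store. ATP2A2 encodes the form of slow and heart muscle in mammals, which other cells also use. It is listed on chromosome 15 from 5344147 to 5385167, minus strand (ENSGALG00000032287). ATP2A2 held 261, 242 and 265 CPM in myotubes and 214, 217 and 209 CPM in myoblasts. The groups did not overlap, although the step was small beside the level. Means were 256 ± 12.4 CPM in myotubes and 213 ± 4.39 CPM in myoblasts (SD, n = 3 each), a log2 fold change of 0.26 ± 0.056 (SE; edgeR adjusted p = 0.0018; 95% interval of the fold 1.10 to 1.31).

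ATP2A3, a pump form known in mammals from blood cells, endothelium and some neurons, was scarce. It is listed on chromosome 19 from 3247312 to 3281243, plus strand (ENSGALG00000001564). Reads numbered 76, 103 and 96 in myotube libraries and 69, 71 and 86 in myoblast libraries. That gave 3.26, 4.45 and 4.35 CPM in myotubes and 4.43, 4.42 and 4.32 CPM in myoblasts, overlapping groups with replicate 1 the lowest myotube library. The difference was not called (fold 0.915, 95% interval 0.698 to 1.2, edgeR adjusted p = 0.53), and changes within that interval cannot be told from none at this depth. The sign of its log2 value turned on the TPM scale. Blood cell and macrophage markers moved in the same libraries as given above, and their part in the ATP2A3 level was not tested.

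ATP2A3 took 1.21%, 1.77% and 1.59% of the summed FPKM of ATP2A2 and ATP2A3 in the myotube libraries, against 1.99%, 1.96% and 1.99% in the myoblast libraries. The myotube shares all lay below the myoblast shares, and ATP2A2 was nearly the whole pair in both groups. The mean difference of -0.455 percentage points had an exact two-sided permutation p of 0.1, the smallest that 3 against 3 libraries allow, and 0.2 after adjustment over the 2 pairs tested. Without myotube replicate 1 it was -0.298 percentage points. A further pair, of JPH2 and JPH1, could not be computed. The name ATP2A1, the fast-muscle SERCA of mammals, was not matched and that gene was not analysed here, so these shares leave it out.

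**Figure D2:**
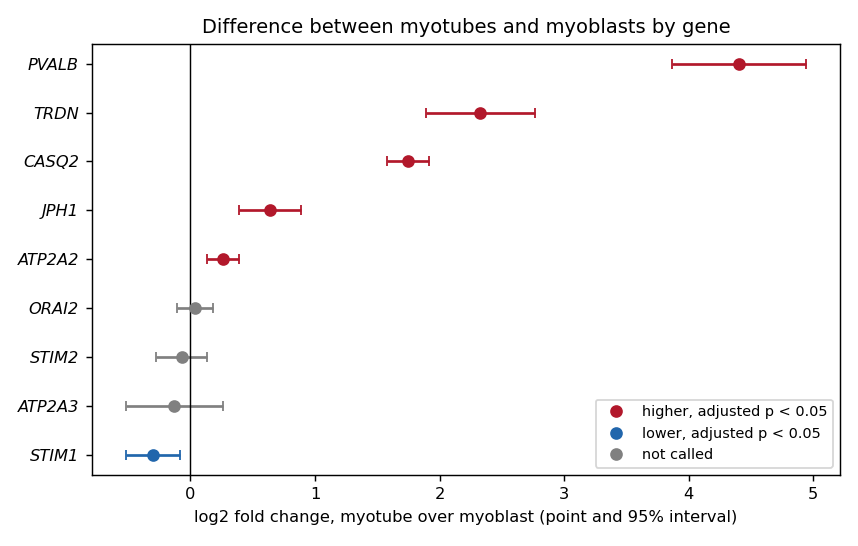
Log2 fold change of each gene, myotube over myoblast, with its 95% interval from the edgeR fit. Genes called higher are red, STIM1, called lower, is blue, and those not called are grey. PVALB at 4.41 stands apart from TRDN at 2.33 and CASQ2 at 1.75, and the intervals of ORAI2, STIM2 and ATP2A3 span 0.

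STIM1, STIM2 and ORAI2, which act in store-operated entry, differed less than the storage proteins. STIM1, the sensor that answers a strong loss of store calcium, is listed on chromosome 1 from 194707208 to 194758238, minus strand (ENSGALG00000041762). Its libraries held 98.9, 98.9 and 79.3 CPM in myotubes and 102, 119 and 121 CPM in myoblasts. On this scale every myotube library was below every myoblast library, by a narrow gap at myoblast replicate 1. Means were 92.4 ± 11.3 CPM in myotubes and 114 ± 10.6 CPM in myoblasts (SD, n = 3 each), a log2 fold change of -0.30 ± 0.097 (SE; edgeR adjusted p = 0.017). The call was lost without myoblast replicate 2 (edgeR adjusted p = 0.071) and without myoblast replicate 3 (edgeR adjusted p = 0.059). It was also lost on FPKM by limma (adjusted p = 0.063), where the groups overlapped at 37.3, 38.1 and 30.5 FPKM in myotubes and 37.5, 43.7 and 43.6 FPKM in myoblasts.

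STIM2, a sensor that responds to smaller losses, is listed on chromosome 4 from 73560960 to 73619143, minus strand (ENSGALG00000014355). It held 22.6, 24.7 and 26.8 CPM in myotubes and 26.9, 24.2 and 26.7 CPM in myoblasts. The ranges overlapped almost fully. The fold was 0.952 with a 95% interval of 0.828 to 1.10 (edgeR adjusted p = 0.50). STIM2 made up 19.95%, 21.4% and 26.9% of the summed FPKM of both sensors in myotubes and 22.3%, 18.1% and 19.4% in myoblasts. These shares overlapped between the groups (difference 2.78 percentage points, exact two-sided permutation p = 0.4, adjusted p = 0.4). By FPKM, STIM1 was the larger of the pair in every library. Without myotube replicate 3 the difference was 0.703 percentage points.

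ORAI2 encodes a pore subunit of the surface channel. It is listed on chromosome 19 from 4112360 to 4121641, plus strand (ENSGALG00000001837). The RefSeq table has a gene under the symbol ORAI3 with ORAI2 as its synonym, and 4 of the 6 nearest named genes in the tables, MYL10, PRKRIP1, ALKBH4 and LRWD1, also lie near that gene there. The level varied least of the set, at 43.5, 45.9 and 43.1 CPM in myotubes and 43.2, 43.1 and 43.0 CPM in myoblasts. Only myotube replicate 2 stood apart from the rest. The fold was 1.03 with a 95% interval of 0.926 to 1.14 (edgeR adjusted p = 0.64). On the TPM scale ORAI2 was called higher (log2 fold change 0.22, limma adjusted p = 0.016), but that limma fit gave a median of 0.20 over all tested genes, where the edgeR fit gave 0.01.

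The paralog ORAI1, the main pore subunit of store-operated channels, was lower in myotubes. It held 6.14, 5.96 and 6.25 CPM in myotubes and 14.7, 13.0 and 12.2 CPM in myoblasts. The groups lay well apart, and ORAI1 was 2.16-fold lower in myotubes (log2 fold change -1.11 ± 0.117, SE; edgeR adjusted p = 1.2e-05). Per gene length, ORAI1 took 29.0%, 27.3% and 29.6% of the ORAI1 and ORAI2 sum in myotubes, against 49.6%, 46.6% and 45.1% in myoblasts. ORAI2 was the larger of the pair in myotubes, and both were near equal in myoblasts. This share was chosen after the values were seen and was not tested.

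**Figure D3:**
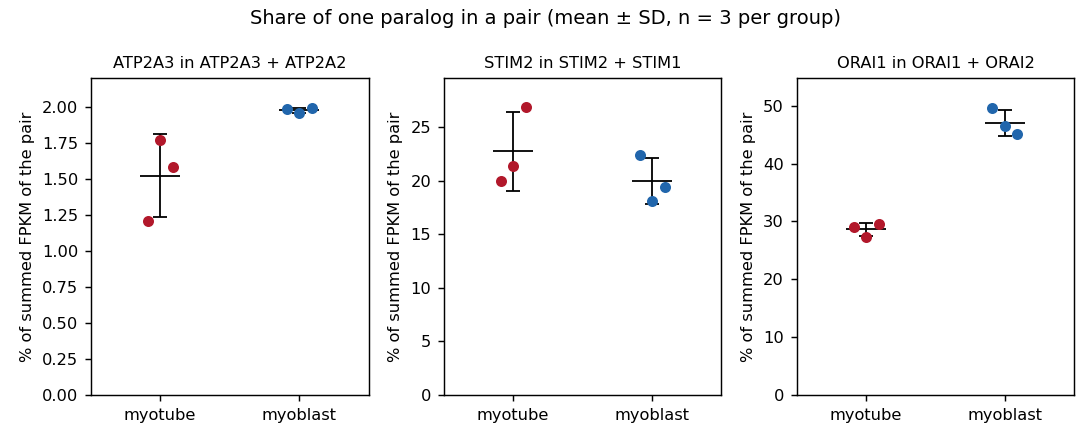
Share of one paralog in the summed FPKM of a pair, in percent, for ATP2A3, STIM2 and ORAI1, myotubes (red) left of myoblasts (blue). Points are libraries and black bars the mean ± SD of 3 libraries. ATP2A3 stays under 2% in all libraries, STIM2 overlaps between groups, and ORAI1 averages 28.7% in myotubes against 47.1% in myoblasts.

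Levels can be compared between genes per length, here as FPKM. In myotubes ATP2A2 led at 67.5 ± 3.0 FPKM, followed by CASQ2 at 62.3 ± 4.32, STIM1 at 35.3 ± 4.2, PVALB at 26.01 ± 4.97 and ORAI2 at 19.8 ± 0.821 FPKM (SD, n = 3). STIM2 at 10.3 ± 0.954, TRDN at 7.90 ± 1.68, JPH1 at 6.85 ± 0.572 and ATP2A3 at 1.04 ± 0.181 FPKM came below. The ranges of ATP2A2 and CASQ2, of STIM1 and PVALB, of STIM2 and TRDN, and of TRDN and JPH1 overlapped, so those neighbours did not stand apart beyond their spread. In myoblasts the order was ATP2A2 at 53.9 ± 1.60, STIM1 at 41.6 ± 3.53, ORAI2 at 18.4 ± 0.240, CASQ2 at 17.7 ± 1.10 and STIM2 at 10.3 ± 0.587 FPKM. JPH1 at 4.23 ± 0.503, TRDN at 1.51 ± 0.0937, PVALB at 1.13 ± 0.438 and ATP2A3 at 1.09 ± 0.0270 FPKM followed. Neighbours with overlapping ranges there were ORAI2 and CASQ2, TRDN and PVALB, and PVALB and ATP2A3. By these FPKM values PVALB was in place 4 of the 9 genes in myotubes and in place 8 in myoblasts. Its place depends on the gene length used.

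The lengths behind these FPKM values are not all the listed ones. For PVALB the authors' FPKM implies a length of 748 bases where the table lists 1605, and for TRDN, ATP2A2, STIM1 and ORAI2 it implies 1388, 3802, 2625 and 2243 against 1734, 4728, 2882 and 3093 bases. The other 4 agree. The implied length of each gene was the same in all 6 libraries, so the fold change of a gene does not depend on it. The order of genes, shares within a pair and quotients between genes do. With listed lengths the group difference in the ATP2A3 share was -0.561 percentage points, against -0.455 with the authors' FPKM. For the STIM2 share it was 2.92 percentage points, against 2.78.

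**Figure D4:**
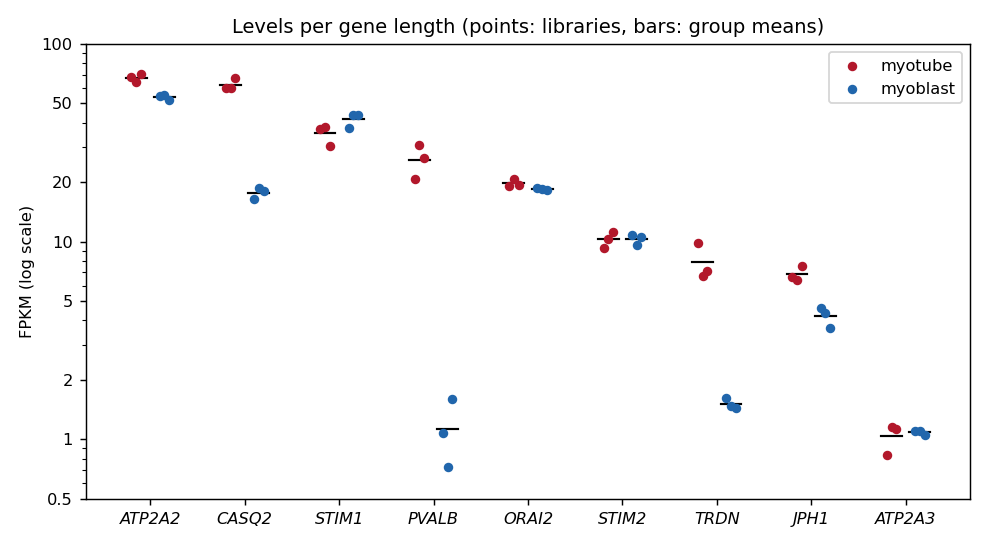
FPKM of the 9 genes on a log axis, myotubes (red) left of myoblasts (blue) for each gene. Points are libraries and black bars group means, with genes in order of their myotube mean. CASQ2 and ATP2A2 lie close in myotubes at 62.3 and 67.5 FPKM, where CASQ2 is at 17.7 and ATP2A2 at 53.9 FPKM in myoblasts.

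The ratio of CASQ2 message to ATP2A2 message differed between the groups. CASQ2 divided by ATP2A2, both in FPKM, was 0.877, 0.933 and 0.959 in the myotube libraries and 0.301, 0.338 and 0.346 in the myoblast libraries. By these FPKM values CASQ2 message was near the level of ATP2A2 message in myotubes and well below it in myoblasts. With the longer listed length of ATP2A2 the quotient would be higher in both groups. CASQ2 would then lie above ATP2A2 in every myotube library, and still below it in every myoblast library. ATP2A1 was not matched, so the quotient does not cover all SERCA pumps. TRDN divided by CASQ2 was 0.165, 0.112 and 0.106 in myotubes and 0.0980, 0.0789 and 0.0800 in myoblasts. That ratio also lay higher in every myotube library, by a smaller step and with myotube replicate 1 apart. STIM1 divided by ORAI2 was 1.94, 1.84 and 1.57 in myotubes and 2.01, 2.36 and 2.40 in myoblasts, with a narrow gap between the groups. These quotients were chosen after the values were seen and were not tested.

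Other genes of calcium handling came from 6 lists that together name 108, and 79 of them had a row and 69 were tested. Over the 6 lists 26 were higher and 20 lower, 37.7% and 29.0%, beside 36.7% and 35.7% of all genes. The counts of each list below are to be read beside those shares of all genes. The release and surface-tubule list had 10 of 17 higher and 3 lower, with a median log2 fold change of 0.54. CACNA1S, the voltage sensor of the tubule, stood at 21.2, 24.6 and 23.9 CPM in myotubes and 5.33, 5.30 and 6.28 CPM in myoblasts, 4.10-fold higher (edgeR adjusted p = 1.6e-07). DHRS7C, an enzyme of the store membrane, was 4.75-fold higher, at 10.5 ± 0.857 CPM in myotubes and 2.20 ± 0.570 CPM in myoblasts (SD, n = 3 each). The largest rise of this list was JPH3, described above. S100A1, a calcium-binding protein that acts on the release channel, fell to 30.2 ± 2.91 CPM in myotubes, against 44.6 ± 4.26 CPM in myoblasts, and CAV3, muscle caveolin, to 24.4 ± 1.12 CPM in myotubes, against 32.1 ± 3.14 CPM in myoblasts (SD, n = 3 each). The other lower gene was HOMER3, a scaffold protein, named after its value was seen.

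RYR3, a release channel that birds carry in skeletal muscle beside the main form, held 39.1, 45.6 and 52.8 CPM in myotubes and 53.1, 46.0 and 45.0 CPM in myoblasts. These overlapped and were not called (edgeR adjusted p = 0.60). RYR2, the heart form, had 30 reads over the myotube libraries and 15 over the myoblast libraries and lay under the filter. The name RYR1 was not matched, and that gene was not analysed here.

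Pumps and exchangers had 4 of 10 higher and 2 lower, or 4 lower without myotube replicate 3. The sodium-calcium exchangers of the surface membrane rose. SLC8A1 reached 12.3 ± 0.640 CPM in myotubes, against 1.38 ± 0.480 CPM in myoblasts, and SLC8A3 59.0 ± 3.73 CPM in myotubes, against 18.3 ± 1.5 CPM in myoblasts (SD, n = 3 each). An unnamed gene overlaps SLC8A1 on its own strand, and reads may be divided between them. The surface pump ATP2B1 fell to 51.3 ± 0.620 CPM in myotubes, against 89.8 ± 7.53 CPM in myoblasts, and the exchanger SLC24A3 fell to 12.6 ± 0.337 CPM in myotubes, against 22.2 ± 2.52 CPM in myoblasts (SD, n = 3 each). SLC24A3 overlaps an unnamed gene on the opposite strand. PLN, phospholamban, an inhibitor of the ATP2A2 pump, held 3.01, 2.59 and 3.35 CPM in myotubes and 0.964, 1.12 and 1.11 CPM in myoblasts, 2.79-fold higher (edgeR adjusted p = 0.00020). PLN overlaps CEP85L, which runs the other way, and a strand setting was not given in the sources used here. The fourth higher gene was SRL, sarcalumenin, a calcium binder of the store named after its value was seen, at 39.2 ± 4.70 CPM in myotubes and 31.7 ± 1.24 CPM in myoblasts (SD, n = 3 each). SLN, sarcolipin, a further inhibitor of SERCA, was not called, at 2.90 ± 0.367 CPM in myotubes and 2.73 ± 0.663 CPM in myoblasts (SD, n = 3 each).

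In the list of store-operated and IP3-gated calcium genes, 1 of 6 was higher and 3 were lower, but 3 were higher with library totals alone, on the TPM scale and with no filter. The lower genes were ITPR3, ORAI1 and SARAF, a brake on STIM1, which was 1.15-fold lower and was chosen after its value was seen. The IP3 receptors, release channels opened by a signalling molecule, moved apart. ITPR1 held 141, 135 and 141 CPM in myotubes and 44.1, 39.1 and 37.8 CPM in myoblasts, 3.45-fold higher (edgeR adjusted p = 1.3e-08). It overlaps 2 unnamed genes on its own strand, and its counts are uncertain. ITPR3 held 25.2, 28.5 and 25.1 CPM in myotubes and 69.1, 61.9 and 54.0 CPM in myoblasts, 2.34-fold lower (edgeR adjusted p = 2e-06). ITPR1 averaged 83.0% of the FPKM of this pair in myotubes and 37.7% in myoblasts, a share chosen after the values were seen and not tested.

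Other buffers did not follow PVALB. Of 7 tested in the list of buffers and luminal proteins, none rose and 4 fell, or 2 fell on the TPM scale. CALR, the luminal calcium binder calreticulin, fell to 575 ± 44.7 CPM in myotubes, against 825 ± 69.4 CPM in myoblasts, and the chaperone HSP90B1 fell to 690 ± 29.3 CPM in myotubes, against 905 ± 6.04 CPM in myoblasts (SD, n = 3 each). CALR overlaps FARSA on the opposite strand. The others that fell, named after their values were seen, were the chaperone CANX and the luminal protein RCN2. Mitochondrial calcium genes had 1 of 10 higher and 3 lower, or 3 higher on the TPM scale and 2 higher without myoblast replicate 1. The largest difference was SMDT1, a subunit of the mitochondrial uptake channel, at 57.5, 59.6 and 55.5 CPM in myotubes and 159, 173 and 169 CPM in myoblasts, 2.90-fold lower (edgeR adjusted p = 8.3e-09). The outer membrane channel VDAC1 was 1.24-fold higher. SLC8B1, the mitochondrial sodium-calcium exchanger, was also lower and was named after its value was seen.

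The calcineurin and CaM kinase list holds enzymes that act on calcium signals and proteins that work with them. Of 19 tested genes, 10 were higher and 5 lower, or 3 lower on the TPM scale. CAMK4, a calcium-activated kinase, stood at 6.17 ± 0.462 CPM in myotubes and 0.801 ± 0.145 CPM in myoblasts (SD, n = 3 each), 7.68-fold higher. MYOZ1, a Z-disc protein that binds calcineurin, stood at 37.1 ± 1.34 CPM in myotubes and 5.04 ± 0.601 CPM in myoblasts (SD, n = 3 each), 7.31-fold higher. RCAN1, a calcineurin inhibitor, held 210, 222 and 222 CPM in myotubes and 346, 326 and 337 CPM in myoblasts, 1.54-fold lower (edgeR adjusted p = 3e-06), and the kinase CAMK1 was 1.44-fold lower. PPP3CC, NFATC1 and CAMK1D were the other lower genes, named after their values were seen.

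**Figure D5:**
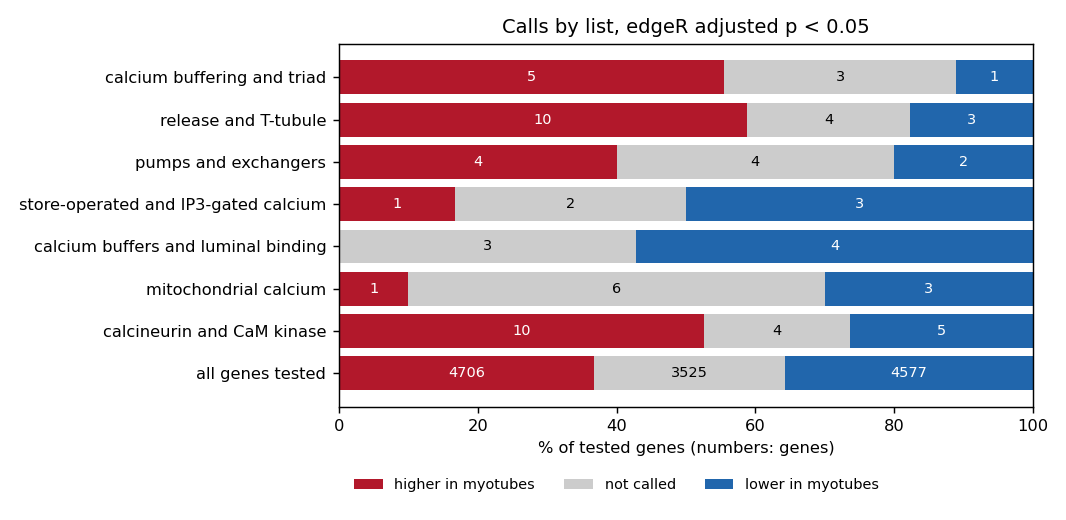
Calls in edgeR's test for the 9 genes of the set, the 6 lists and all tested genes, as percent of tested genes, with the number of genes printed on each bar. Red is higher in myotubes, grey not called and blue lower. The set and the release and surface-tubule list have 5 of 9 and 10 of 17 genes higher, and no tested gene of the buffer and luminal list is higher.

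Among 8697 other tested genes with a symbol, those whose values over the 6 libraries lay nearest to PVALB were GLT8D2, COL8A2 and NRCAM. Their distances, as root mean square difference of log2 CPM centred on each gene's mean, were 0.25, 0.26 and 0.28. Nearest to TRDN were TMOD1, GATM and DDIT4, at 0.12, 0.14 and 0.14. With 2 groups of 3 libraries this measure is set almost wholly by the difference between the groups.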

How the data were processed

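The authors deposited 1 table per library, holding a raw count and an FPKM for every gene, per the file headers. HISAT and HTSeq are named, per the submitters' processing notes. The build, strand setting and handling of multiply mapped reads were not given in the sources used here. Loci without an Ensembl identifier, 1.66 to 2.12% of counts, and 2 text rows in each myotube table were left out.

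The main test was edgeR's quasi-likelihood F-test (edgeR 4.0.16 under R 4.3.3), two-sided, on the counts, with TMM scaling on library sizes summed over Ensembl genes, and Benjamini-Hochberg adjustment over the 12808 genes whose FPKM averaged 1 or more. Standard errors are the fitted log2 fold change divided by the root of F. The common coefficient of variation was 0.0975. Shares used an exact permutation test (scipy 1.17.1). Alternatives were DESeq2 1.42.0, limma 3.58.1 on log2(FPKM + 0.1), log2(FPKM + 1), TPM-scaled and quantile-normalized values, other size factors and filters, a stricter threshold, a replicate block and leaving out each library.

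The genes, lists and tests were chosen with earlier results of these data known. Besides the set, the text names up to 2 called genes per list with the largest rise and up to 2 with the largest fall, and 8 partners or paralogs. It also names the 3 genes nearest to PVALB and to TRDN and the most abundant gene of marker lists. Others were chosen after their values were seen. Some genes that this rule names are not reported here. List names were matched by symbol, alias or a synonym in the RefSeq table of GRCg7b, used only for names and neighbours.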

Additional observations from a re-analysis of the deposited data

How the results depend on the processing

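PVALB, TRDN, CASQ2, JPH1 and ATP2A2 were called higher under all 17 alternatives, with log2 fold changes of 3.67 to 4.78, 1.81 to 2.44, 1.69 to 1.93, 0.54 to 0.81 and 0.23 to 0.45. STIM1 kept its sign but not its call. Its log2 fold change was -0.24 by limma on log2(FPKM + 0.1) and -0.24 on log2(FPKM + 1), -0.12 on the TPM scale, -0.21 after quantile normalization and -0.30 at the stricter threshold of 0.01, and without single libraries it ranged from -0.38 to -0.20. On the TPM scale the sign turned for ATP2A3 (0.042), STIM2 (0.11) and RYR3 (0.11), and ORAI2 became called (0.22). This setting, a limma fit on rescaled FPKM, moved the median of all tested genes by 0.19 from the edgeR fit. RYR3 also turned to 0.0093 without myoblast replicate 1 and 0.030 without myotube replicate 1, in a range of -0.18 to 0.030 without single libraries. SLN turned to -0.069 after quantile normalization, -0.024 without myoblast replicate 1 and -0.019 without myotube replicate 1, in a range of -0.024 to 0.29. Neither gene became called under any of these settings. The cause of these shifts was not tested.

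Counts of other calcium genes moved in these cases. Store-operated and IP3-gated genes called higher numbered 3 with library totals, 3 on the TPM scale, 3 with no filter, 2 with DESeq2 and between 1 and 2 without single libraries. Mitochondrial genes called higher numbered 2 with library totals, 3 on the TPM scale and between 1 and 2 without single libraries. On the TPM scale 2 buffer and luminal genes and 3 calcineurin and CaM kinase genes were lower. Pumps and exchangers called lower numbered between 2 and 4 without single libraries.

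No pairing of samples by equal replicate numbers was evident, although the correlations below cannot exclude it. Deviations of same-numbered libraries from their group means correlated at -0.035, 0.10 and -0.16, and not every library correlated best with its own number. With the replicate number as a block, 4447 genes were higher and 4337 lower, against 4706 and 4577 without it, and no call among the 9 genes changed. Depth limits ATP2A3 and the myoblast values of PVALB and TRDN, which rest on at most 103, 25 and 42 reads per library.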
